A study of Mus musculus with 11 samples.

Results

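The 10 genes described here are Trp53, which encodes the transcription factor p53, its inhibitors Mdm2 and Mdm4, and 7 genes that p53 is well known to induce, namely Ccng1, Phlda3, Zmat3, Sesn2, Trp53inp1, Btg2 and Eda2r. They were taken by symbol from the 24319 gene symbols of the expression tables, for their known place in the pathway and not by a measured value. RNA was sequenced from 11 mouse libraries of the C57BL/6J strain in 3 groups. The B-ALL group held leukemic cells from lymph nodes of 3 mice (686, 713 and 760) that carried Ebf1+/- Pax5+/- and had B cell acute lymphoblastic leukemia, with 2 libraries from each mouse. The dHet proB group held 3 libraries of Ebf1+/- Pax5+/- Rag2-/- progenitor B cells, grown for a short time in culture from c-Kit+ fetal liver cells, with OP9 feeder cells (a stromal line) and the cytokines SCF, Flt3 ligand and IL-7. The wt proB group held 2 libraries of FrBC cells sorted from bone marrow of Ebf1+/+ Pax5+/+ Rag2+/+ mice, and the labels mention no culture of these cells. Between B-ALL and wt proB, tissue and leukemia change together. Between B-ALL and dHet proB, tissue, fetal origin, culture and leukemia do. Between dHet proB and wt proB, tissue, fetal origin, culture and Rag2 genotype do. No Rag2 genotype is given here for the B-ALL mice, so its part in their comparisons is unknown. Factors that change together cannot be told apart. The Ebf1 and Pax5 genotype, shared by B-ALL and dHet proB, changes with them in both comparisons with wt proB. Separate animals or cultures are not stated for the libraries of either proB group, so the spread between these libraries may be technical. The p-values between groups rest on that spread pooled with the spread between the B-ALL mice. Those between mice measure the spread between libraries. Ages were not given.

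In an unstressed cell p53 is kept low because MDM2, a ubiquitin ligase, marks it for degradation, while the related MDM4 binds p53 and blocks its activity. DNA damage activates kinases such as ATM and CHK2, p53 accumulates, and it induces genes for cell cycle arrest, repair and cell death together with Mdm2 itself, which closes a negative feedback loop. Progenitor B cells meet this pathway during normal development, because the RAG recombinase, of which RAG2 is a subunit, cuts DNA at the antigen receptor genes. Most control of p53 acts on the protein, which RNA levels do not measure.

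The binding unit of p53 is a decamer, and a response element is a pair of such decamers next to each other. RefSeq promoter windows (build GRCm38.p6, 250 bases before to 50 bases after each gene start) were matched by symbol for 8 of the 10 genes, with 2 windows for Mdm4. Zmat3 and Trp53inp1 had no entry. The windows of Trp53, Mdm2 and Ccng1 each held an exact match to the p53 decamer on either strand, as did 8.36% of all 32851 windows. The stretches below show these matches in capitals, for the gene of p53, for its feedback inhibitor and for the cyclin gene whose level stood apart in a dHet proB library. The upstream of 2 windows of Cdkn1a, which encodes the cell cycle inhibitor p21, is shown beside them as the classical p53 target. The other Cdkn1a window held no exact decamer.
Trp53 (chr11:69580249-69580328, plus strand): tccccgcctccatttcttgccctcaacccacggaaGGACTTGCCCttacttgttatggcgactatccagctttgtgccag
Mdm2 (chr10:117710900-117710979, minus strand): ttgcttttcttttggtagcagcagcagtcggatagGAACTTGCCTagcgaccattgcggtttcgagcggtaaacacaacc
Ccng1 (chr11:40755427-40755506, minus strand): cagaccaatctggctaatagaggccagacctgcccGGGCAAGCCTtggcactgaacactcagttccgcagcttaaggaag
Cdkn1a (chr17:29090871-29090972, plus strand): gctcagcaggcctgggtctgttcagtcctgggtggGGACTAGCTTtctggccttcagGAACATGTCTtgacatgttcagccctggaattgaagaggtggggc

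In Ccng1 and in Cdkn1a the exact decamer adjoined another with 1 mismatch, and 0.11% of all windows held such a pair with at most 1 mismatch and a gap of at most 1 base. The window of Btg2 held no p53 decamer but an exact cAMP response element, TGACGTCA, which reads the same on both strands and which 1.79% of all windows held. It is shown in capitals as the only match to either motif in this window. Its part in the level of Btg2 was not tested.
Btg2 (chr1:134079279-134079356, minus strand): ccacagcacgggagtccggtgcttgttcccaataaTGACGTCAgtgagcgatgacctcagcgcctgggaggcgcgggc

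The windows of Mdm4, Phlda3, Sesn2 and Eda2r held neither motif. A match is a description of the letters and not of binding, and known p53 sites can lie outside the window, as those of Mdm2 do in its first intron.

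Levels are FPKM, fragments scaled to transcript length and to mapped fragments, so levels of different genes can be compared per length. All 10 B cell progenitor markers described here, among them Cd79a, which encodes part of the B cell receptor complex, and Vpreb1 and Igll1, which encode the surrogate light chain, reached 1 FPKM in every library. Their summed level was 7140 to 7524 FPKM in wt proB, 5969 to 8775 in B-ALL and 8129 to 10540 in dHet proB libraries. Of these 10 markers, 2 were called lower in B-ALL than in wt proB and 4 lower than in dHet proB and none was called higher. Of all tested genes, 18.2% and 25.5% were called in these comparisons. Summed markers of other cell types differed between the groups. The summed level of 13 myeloid and plasmacytoid dendritic cell markers was 736 to 867 FPKM in wt proB, 29.8 to 266 in B-ALL and 16.4 to 72.3 in dHet proB libraries. For 10 T and NK cell markers it was 36.7 to 40.4, 47.5 to 338 and 2.99 to 11.9 FPKM in the same order, and 5 of these 10 markers and 4 of the 13 before were at 0 in every dHet proB library. For 7 erythroid and megakaryocyte markers it was 9.68 to 31.5, 7.87 to 494 and 0.691 to 1.05 FPKM, and for 7 stromal markers 24.9 to 26.8, 60.0 to 201 and 4.21 to 11.7 FPKM. Single genes carried some of these sums. Serpinf1 made up nearly all of the stromal sum in B-ALL, where each other stromal marker was at most 0.512 FPKM. Cxcl12 was highest in dHet proB library 1, at 2.03 FPKM. Nkg7 alone was at 328 and 265 FPKM in mouse 760, which had least Cd3d, Cd3e and Cd3g of the 3 mice. The part of other cell types in the differences below was not tested. Of 18 immediate early genes, which respond within minutes to signals or handling, the sum was 3041 to 3838 FPKM in wt proB, 458 to 743 in B-ALL and 610 to 986 in dHet proB libraries. Fold changes below come from limma on log2(FPKM + 1) over 8 units (each B-ALL mouse as the mean of its 2 libraries), which understates changes of low genes. A call is an adjusted p under 0.05 (Benjamini-Hochberg) over 11110 genes with 1 FPKM in at least 2 units. Between B-ALL and wt proB, 905 genes were higher and 1112 lower. After rescaling to TPM the split was 529 and 1695 with a median shift of all genes to -0.22 on the log2 scale, and with no filter on low values it was 724 and 1503. Between B-ALL and dHet proB, 1614 genes were higher and 1218 lower, against 1124 and 1776 after TPM rescaling (median shift -0.12) and 1318 and 1517 after quantile normalization. For dHet proB against wt proB the split was 242 and 722, or 456 and 634 after quantile normalization. In these bulk samples, fewer cells of a type and less RNA per cell cannot be told apart.

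In B-ALL, Trp53 had the highest mean level per length of the 10 genes, although Btg2 exceeded it in both libraries of mouse 713. Mdm2, Mdm4 and Btg2 were lower than in wt proB, and Mdm2, Trp53inp1 and Btg2 were lower than in dHet proB. Of the 10 genes, 8 passed the filter on low values and were tested. None of the 8 was called higher in B-ALL in either comparison. Against wt proB, 3 of the 8 were called, all lower, where 18.2% of all tested genes were called in either direction. Against dHet proB, 3 of the 8 were called, all lower, where 25.5% of all tested genes were called. Both comparisons share the B-ALL samples. The median log2 fold change of the 8 genes was -0.75 against wt proB and -0.72 against dHet proB, beside -0.02 and 0.04 for all tested genes. The 10 B cell progenitor markers had medians of -0.72 and -0.71 in the same comparisons, and their part in these differences was not tested. For dHet proB against wt proB, limma called 0 of the 8, where 8.68% of all tested genes were called, and 3 of the 8 (Mdm4, Ccng1 and Btg2) had an unadjusted p under 0.05. Libraries of B-ALL and wt proB did not overlap in 5 of the 8 genes (48.2% of all tested genes), those of B-ALL and dHet proB in 4 (34.9%), and those of dHet proB and wt proB in 5 (43.0%).

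**Figure D1:**
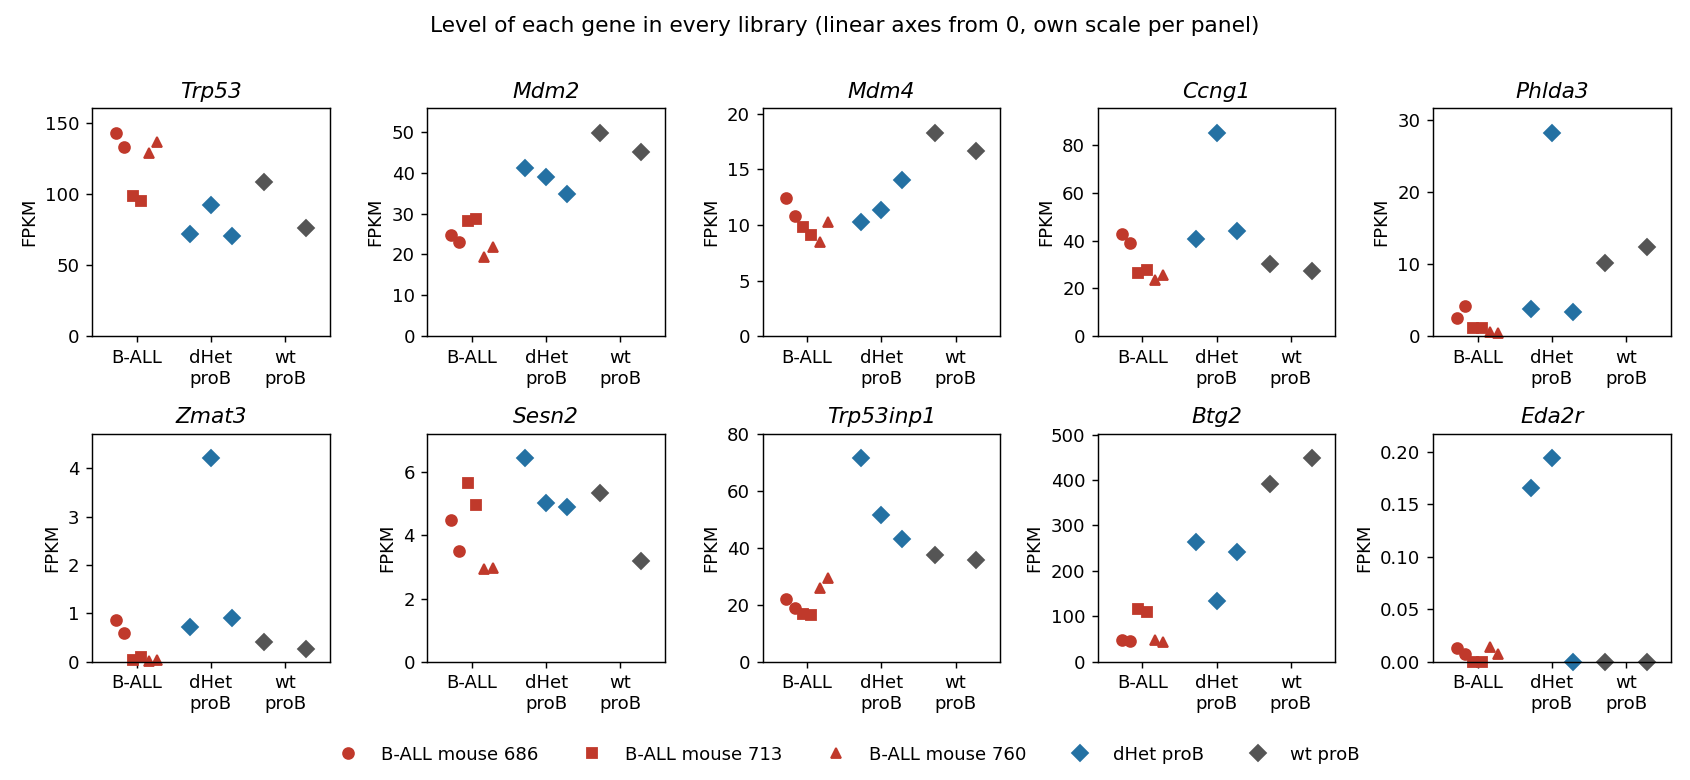
Level (FPKM, linear axes from 0, own scale in each panel) of the 10 genes in each of the 11 libraries, by group, with B-ALL mice marked by symbol. All B-ALL libraries lie below all proB libraries for Mdm2, Trp53inp1 and Btg2, and dHet proB library 2 lies far above its group for Phlda3 (28.3 FPKM), Zmat3 (4.20 FPKM) and Ccng1 (85.2 FPKM).

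Trp53 lay above 93.2% of all genes by level in every library. It was at 143 and 133 FPKM for mouse 686, 98.5 and 94.9 for mouse 713 and 129 and 136 for mouse 760. The dHet proB libraries had 72.1, 92.1 and 70.7 FPKM, and the wt proB libraries 109 and 75.8. All 6 B-ALL libraries thus lay above all 3 dHet proB libraries, narrowly for mouse 713, and overlapped with wt proB. The mean was 123 ± 22.6 FPKM (SD, n = 3 mice) in B-ALL, 78.3 ± 12.0 (SD, n = 3) in dHet proB and 92.3 ± 23.2 (SD, n = 2) in wt proB. The log2 difference of B-ALL from dHet proB was 0.63 (SE 0.21, limma adjusted p = 0.0576), just outside the threshold. It passed the threshold without mouse 713 (adjusted p = 0.0287), without dHet proB library 2 (0.0484) and with all libraries entered and the mouse as a random effect (0.0329). Against wt proB the difference was 0.41 (SE 0.23, limma adjusted p = 0.246). The paralogs Trp63 and Trp73, which encode the p53 relatives p63 and p73, were at most 0.0387 FPKM in any library. A processed pseudogene of Trp53 lies elsewhere in the GENCODE M21 annotation, and how reads shared with it were assigned is unknown.

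Mdm2, the feedback inhibitor and itself a p53 target, was lower in B-ALL than in both proB groups. Its level was 24.9 and 23.1 FPKM for mouse 686, 28.3 and 28.8 for mouse 713 and 19.5 and 21.9 for mouse 760. In the dHet proB libraries it was 41.1, 38.9 and 34.8 FPKM, and in wt proB 49.8 and 45.0. The 3 groups did not overlap, with B-ALL lowest and wt proB highest. Mean Mdm2 in B-ALL was 0.515 times that in wt proB and 0.638 times that in dHet proB. The log2 differences were -0.94 (SE 0.17, limma adjusted p = 0.00963) and -0.64 (SE 0.15, limma adjusted p = 0.0217). The call against wt proB was lost without either wt proB library (adjusted p = 0.101 and 0.0928). The call against dHet proB was lost without mouse 686 (0.0706), mouse 760 (0.0606) or dHet proB library 1 (0.0785). Between dHet proB and wt proB the difference was -0.30 (95% interval -0.70 to 0.09).

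Mdm4, which encodes the inhibitor that masks p53 without degrading it, was lower in B-ALL than in wt proB only by a margin near the threshold. It had 8.43 to 12.5 FPKM in the 6 B-ALL libraries, then 10.3, 11.3 and 14.1 for dHet proB, with 18.3 and 16.7 for wt proB. B-ALL and dHet proB overlapped, and both lay below wt proB. The log2 difference of B-ALL from wt proB was -0.74 (SE 0.19, limma adjusted p = 0.0334). It stayed between -0.96 and -0.68 over 27 alternative settings and lost the call in 8 of them, among them each setting that left out a mouse or a wt proB library. From dHet proB it was -0.21 (95% interval -0.60 to 0.19). A processed pseudogene overlaps Mdm4 on the opposite strand in that annotation, another of Mdm4 lies elsewhere, and no source used here gives the strand setting of the counting.

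The ratio of Trp53 to Mdm2 separated the leukemias from both proB groups. Within a library it was 5.76 and 5.77 for mouse 686, 3.49 and 3.30 for mouse 713 and 6.62 and 6.22 for mouse 760. It was 1.75, 2.37 and 2.03 for dHet proB, with 2.18 and 1.69 for wt proB. The lowest B-ALL ratio was above the highest proB ratio, and the dHet proB and wt proB ranges overlapped. Being a ratio within a library, it does not depend on how libraries were scaled to each other. Over the 8 units Trp53 and Mdm2 had a Pearson r of -0.65, a description of units that fall into groups.

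**Figure D2:**
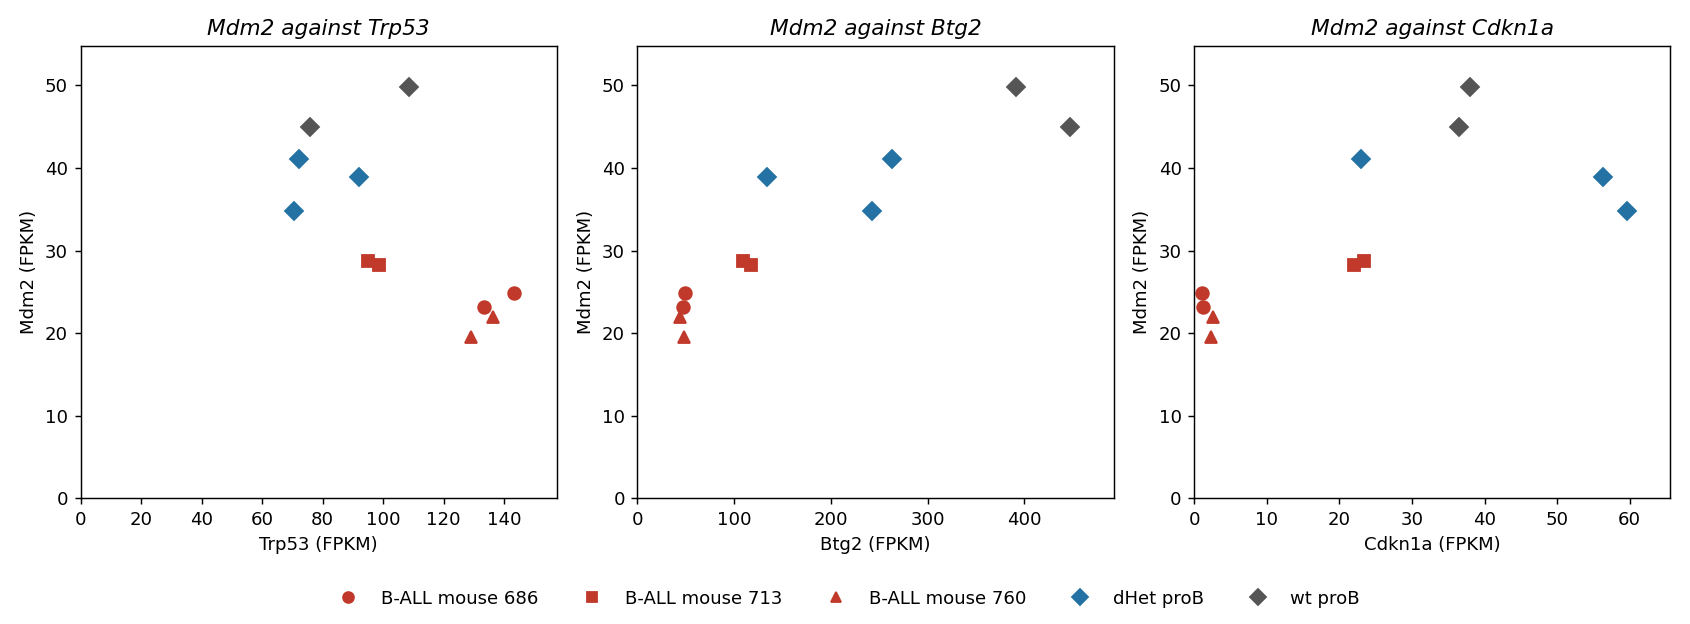
Mdm2 (FPKM, vertical) against Trp53, Btg2 and Cdkn1a (FPKM, horizontal, linear axes from 0), 1 point per library, coloured by group with B-ALL mice by symbol. B-ALL libraries sit at the lowest Mdm2. Their Trp53 lies above all dHet proB libraries, but that of mouse 713 (98.5 and 94.9 FPKM) lies below wt proB library 1 (109 FPKM). Btg2 falls with Mdm2 from wt proB to B-ALL. On the Cdkn1a axis, mouse 713 (22.1 and 23.4 FPKM) lies apart from the other B-ALL mice and near dHet proB library 1 (22.9 FPKM). Mouse 713 had less Mdm2 (28.3 and 28.8 FPKM) than that library (41.1 FPKM).

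Btg2, an antiproliferative gene induced by p53 and also by growth and stress signals, showed the largest called difference of the set. Its level was 48.6 and 46.7 FPKM for mouse 686, 117 and 110 for mouse 713 and 48.2 and 44.0 for mouse 760. The dHet proB libraries had 264, 134 and 242 FPKM and the wt proB libraries 391 and 448. The groups did not overlap, in the same order as for Mdm2. Mean Btg2 in B-ALL was 0.165 times that of wt proB and 0.324 times that of dHet proB. The log2 differences were -2.71 (SE 0.43, limma adjusted p = 0.00539) and -1.68 (SE 0.39, limma adjusted p = 0.0180). The first call was lost without either wt proB library (adjusted p = 0.0573 and 0.0827) and the second without mouse 686 (0.0659) or dHet proB library 1 (0.0692). Against wt proB, all 18 immediate early genes were lower in B-ALL (18 of 18 called) and 14 of 18 were lower in dHet proB. Of all tested genes, 18.2% and 8.68% were called in these comparisons. Fos fell by 5.77 on the log2 scale in B-ALL (limma adjusted p = 8.93e-05), from 70.5 to 0.261 FPKM. The part of handling, sorting or other cells in the Btg2 difference was not tested. Over the 8 units Btg2 and Mdm2 had a Pearson r of 0.94.

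Trp53inp1, whose protein is a stress-induced partner of p53 that also acts in autophagy, was lower in B-ALL than in dHet proB. It had 22.2 and 18.8 FPKM for mouse 686, 16.7 and 16.3 for mouse 713 and 26.1 and 29.4 for mouse 760. The dHet proB libraries had 71.4, 51.7 and 43.1 FPKM and the wt proB libraries 37.5 and 35.8. No 2 groups overlapped, with dHet proB highest and B-ALL lowest. The log2 difference of B-ALL from dHet proB was -1.32 (SE 0.24, limma adjusted p = 0.00796) and kept its call in all 27 alternative settings (adjusted p 0.00304 to 0.0312). From wt proB it was -0.77 (SE 0.26, limma adjusted p = 0.0789), which passed the threshold after TPM rescaling (0.0394) and without mouse 760 (0.0482).

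**Figure D3:**
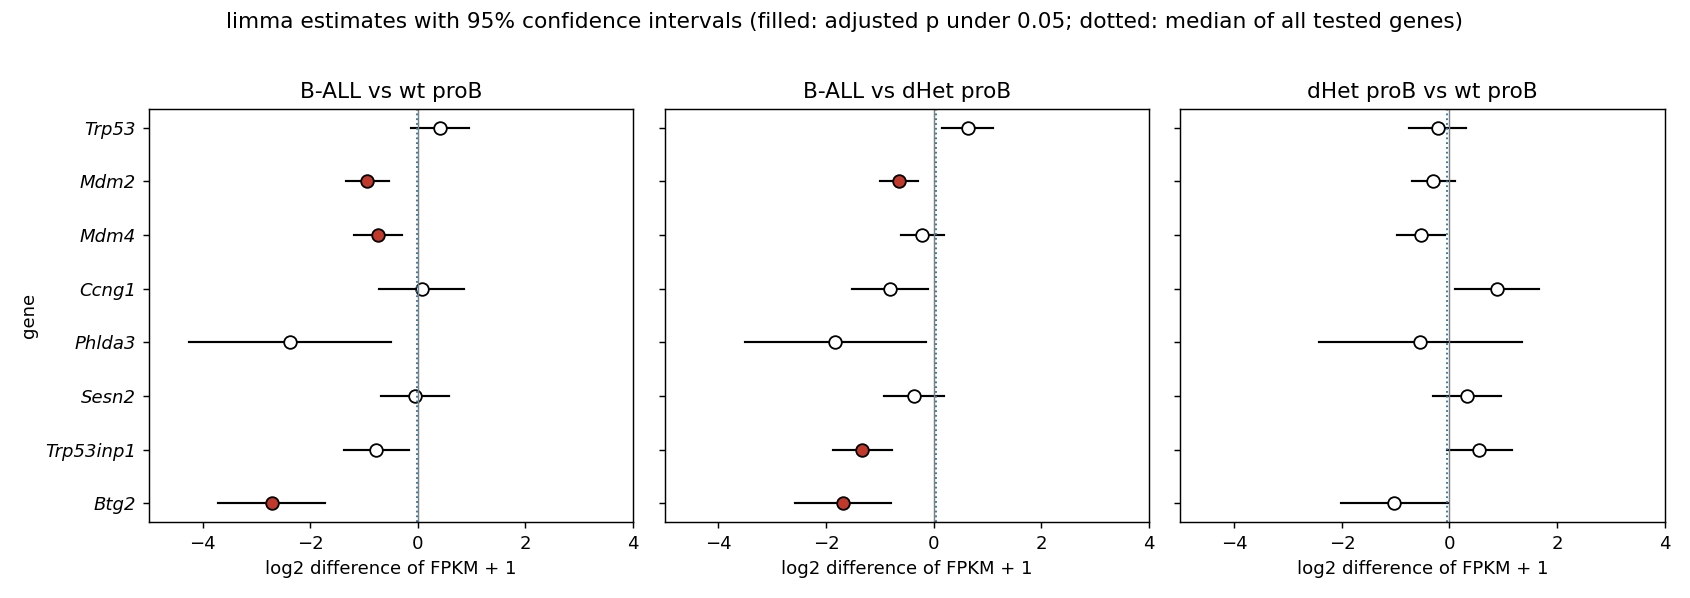
Differences on the log2(FPKM + 1) scale estimated by limma for the 8 tested genes in the 3 comparisons (point, estimate; bar, 95% confidence interval; filled, adjusted p under 0.05; dotted line, median of all tested genes). The filled points are Mdm2, Mdm4 and Btg2 against wt proB and Mdm2, Trp53inp1 and Btg2 against dHet proB, all below 0, and none is filled for dHet proB against wt proB.

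Phlda3, which encodes an inhibitor of AKT signalling induced by p53, was low in B-ALL but varied too much for a call. It had 2.55 and 4.19 FPKM for mouse 686, 1.17 and 1.13 for mouse 713 and 0.510 and 0.395 for mouse 760. The wt proB libraries had 10.2 and 12.4 FPKM, above all B-ALL libraries, and the dHet proB libraries had 3.76, 28.3 and 3.31. The log2 difference of B-ALL from wt proB was -2.37 (SE 0.82, limma adjusted p = 0.0794). It passed the threshold without dHet proB library 2 (SE 0.43, adjusted p = 0.0130) and in 3 other settings (0.0250 to 0.0458). Against dHet proB it was -1.83 (SE 0.73, limma adjusted p = 0.101) with that library and -0.93 (SE 0.43, adjusted p = 0.154) without it.

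Ccng1, which encodes cyclin G1, a p53-induced regulator of MDM2, was at 42.8 and 39.2 FPKM for mouse 686, 26.5 and 27.8 for mouse 713 and 23.7 and 25.5 for mouse 760. The dHet proB libraries had 40.6, 85.2 and 44.0 FPKM and the wt proB libraries 30.1 and 27.2. All dHet proB libraries lay above wt proB, and mouse 686 overlapped with dHet proB while mice 713 and 760 lay near wt proB. No difference was called: the log2 difference was 0.07 for B-ALL against wt proB (95% interval -0.71 to 0.86), -0.81 against dHet proB (limma adjusted p = 0.0869) and 0.88 for dHet proB against wt proB (adjusted p = 0.173). The first turned to -0.13 after TPM rescaling and to -0.14 without mouse 686. The second passed the threshold after TPM rescaling (adjusted p = 0.0386).

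Sesn2, which encodes a stress-induced inhibitor of mTORC1 that ATF4 also induces, did not separate the groups. Its level ran from 2.95 to 5.65 FPKM in B-ALL, from 4.90 to 6.44 in dHet proB and from 3.18 to 5.36 in wt proB. The log2 difference of B-ALL from wt proB was -0.05 (95% interval -0.68 to 0.58) and changed sign under 5 of 27 settings, quantile normalization among them (0.17). Against dHet proB it was -0.37 (95% interval -0.93 to 0.20). A transcript annotated as antisense, Gm12981, overlaps Sesn2 and is listed on the same strand in GENCODE M21.

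Zmat3, which encodes an RNA-binding zinc finger protein induced by p53, and Eda2r, which encodes a receptor of the TNF family, did not reach 1 FPKM in 2 units and were not tested. Zmat3 was at 0.870 and 0.603 FPKM for mouse 686, below 0.1 FPKM in all 4 libraries of mice 713 and 760, 0.727, 4.20 and 0.895 for dHet proB, with 0.402 and 0.272 for wt proB. It was thus higher in every dHet proB library than in both wt proB libraries. Eda2r was at most 0.194 FPKM, in dHet proB library 2, and listed at 0 in both wt proB libraries, both libraries of mouse 713 and dHet proB library 3. The files give no counts, so how many fragments lie behind these low values is unknown.

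In dHet proB library 2 part of the set stood apart from the other dHet proB libraries. Phlda3 was 8.0 times, Zmat3 5.18 times and Ccng1 2.02 times the mean of libraries 1 and 3. Eda2r had a ratio of 2.35, from 0.165, 0.194 and 0 FPKM in libraries 1, 2 and 3, so library 2 was near library 1. The ratio was 1.29 for Trp53, 1.03 for Mdm2, 0.929 for Mdm4, 0.902 for Trp53inp1, 0.89 for Sesn2 and 0.53 for Btg2. Of the 8 tested genes only Phlda3 was at least 2-fold (FPKM + 1) above both other libraries, as were 0.900% of all tested genes. Of 34 other p53 targets tested, 3 met the same mark. Psrc1 was 5.06 times, the death gene Bbc3 (PUMA) 3.09 times and Bax, the pore-forming death effector, 2.08 times the mean of libraries 1 and 3. Other targets had ratios below 1, among them Sco2 (0.246), Xpc (0.533) and Sesn1 (0.640). Library 2 was the highest dHet proB library for 16 of the 34 (47.1%), beside 33.4% of all tested genes. It was at least 2-fold below both others for 0 of the 34, beside 1.94% of all tested genes. Library 3 was at least 2-fold below both others for 3 of the 34 (8.82%), beside 1.58% of all tested genes. Cdkn2a, which encodes p16INK4a and the MDM2 inhibitor p19ARF, had 31.7 FPKM in library 2 against 14.9 and 8.59. Asns, a target of the ATF4 stress pathway, also stood apart, at 36.3 FPKM against 9.41 and 8.10. With 1 library there is no test of these differences. Library 2 was not the library with most such genes: library 3 had 184 tested genes at least 2-fold above both others, library 2 had 100 and library 1 had 39.

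**Figure D4:**
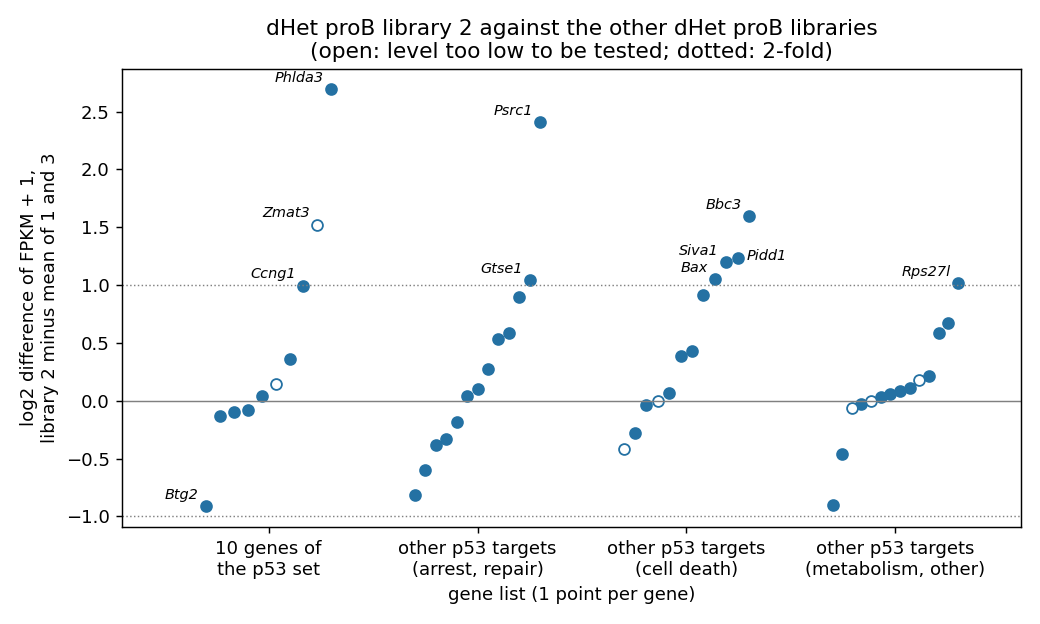
Difference of dHet proB library 2 from the mean of libraries 1 and 3 on the log2(FPKM + 1) scale for the 10 genes and 39 other p53 targets, 1 point per gene in order of value within each list (open, too low to be tested; dotted lines, 2-fold). Phlda3 and Psrc1 lie highest, and Btg2 lies lowest among the 10 genes.

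Among the B-ALL mice, Btg2 was the gene of the set called to differ. A limma F test between the 3 mice, against the spread between libraries, called 1 of the 8 tested genes, where 22.3% of 11293 tested genes were called. Btg2 was higher in mouse 713 than in mouse 686 by 1.23 and than in mouse 760 by 1.28 on the log2 scale (adjusted p = 0.0127). Without either library of mouse 713 the adjusted p was 0.113 and 0.0856. Phlda3 had a larger difference, 1.56 lower in mouse 760 than in mouse 686, that was not called (adjusted p = 0.334). Without dHet proB library 2, the F test also called Phlda3 (adjusted p = 0.00121) and Ccng1 (0.00340). Trp53inp1 was called without dHet proB library 1 (0.0195) or 3 (0.0299), and Mdm2 without library 3 (0.0437). With the replicate number as a block, the test called Btg2 (0.0120) and Trp53inp1 (0.0330). Fitted on the 6 B-ALL libraries alone, it called all but Mdm4, 7 of the 8 genes. That fit called 5073 of the genes that passed the filter in these libraries, against 2513 in the main fit. In single B-ALL libraries, 10007 to 10144 genes reached 1 FPKM, so a large share of all genes was called. Both libraries of a mouse agreed closely for these genes: the largest difference was 0.55 on the log2 scale, for Phlda3 in mouse 686, where 415 of 11110 tested genes were at least 2-fold higher in library 2. Mouse 713 had the lowest Trp53 and the highest Mdm2 and Btg2 of the 3 mice. The same mouse had most Cdkn1a, at 22.1 and 23.4 FPKM against 1.11 and 1.14 for mouse 686 and 2.26 and 2.58 for mouse 760 (adjusted p = 0.000339). Mouse 760 had least Cdkn2a, at 0.458 and 0.399 FPKM against 6.61 to 8.20 FPKM in the other mice (adjusted p = 0.00328).

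Genes called among the others of the pathway went in both directions. Of 16 tested upstream regulators, 1 was higher and 1 lower in B-ALL than in wt proB, 1 higher and 3 lower than in dHet proB, and 2 were higher in dHet proB than in wt proB. Of all tested genes, 18.2%, 25.5% and 8.68% were called in the same order. Rpl5, a ribosomal protein gene whose product can hold MDM2 off p53, was higher than in wt proB by 1.01 in B-ALL (limma adjusted p = 0.00774) and by 0.78 in dHet proB (0.0306). The first call was lost in 2 of 27 alternative settings and the second in 6. Ppm1d, the WIP1 phosphatase that turns the damage response off, fell by 1.06 against wt proB (0.0386) and by 0.85 against dHet proB (0.0451) in B-ALL. Its B-ALL and dHet proB libraries overlapped, and the calls were lost in 9 and 14 of the 27 settings. Chek2, which encodes the kinase CHK2, was 0.59 higher in B-ALL than in dHet proB (0.0429), and Rfwd2, which encodes the ubiquitin ligase COP1, fell by 0.74 (0.0325). The Chek2 call was lost in 14 of the 27 settings, among them TPM, median-ratio and quantile scaling, and the Rfwd2 call in 11. With library 2 of each mouse alone, Rfwd2 fell by 0.48. Cdkn2a was 0.416 and 0.613 FPKM in wt proB, near its level in mouse 760, and was 3.50 higher on the log2 scale in dHet proB (limma adjusted p = 0.0341). That call was lost without dHet proB library 1 or 2 or either wt proB library (adjusted p 0.0785 to 0.253).

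Of 34 other p53 targets tested, 1 was higher and 6 lower in B-ALL than in wt proB, where 18.2% of all tested genes were called. Against dHet proB, 4 were higher and 6 lower, where 25.5% of all tested genes were called. The median log2 fold change of the 34 targets was -0.06 and -0.08, beside -0.02 and 0.04 for all tested genes. Among arrest and repair genes, Plk2, a stress-induced kinase, fell by 3.41 and Gadd45a, an arrest gene, by 2.44 in B-ALL against wt proB (limma adjusted p = 0.0194 and 0.00827), whereas Sesn1, a sestrin gene related to Sesn2, rose by 1.46 (0.0294). The Plk2, Gadd45a and Sesn1 calls were lost in 3, 2 and 4 of 27 alternative settings. Rrm2b, which encodes the p53-inducible subunit of ribonucleotide reductase, fell by 1.66 against dHet proB (0.00220), from 21.6 to 6.35 FPKM. Cdkn1a fell by 2.97 against dHet proB (0.0340) with overlapping libraries, since mouse 713 reached dHet proB library 1, and lost the call in 10 of 27 settings. Its difference from wt proB was -2.78 (0.0709), and that of dHet proB from wt proB 0.19 (0.938). Among death genes, Bbc3 fell by 3.19 and Ei24 by 1.11 against dHet proB (0.00469 and 0.0151), while Bid, a BH3-only protein gene, and Aen, a nuclease gene, rose by 1.70 and 0.96 (0.0182 and 0.0389). Bbc3 differed between the libraries of mouse 686, at 1.84 and 16.0 FPKM. So did Ei24, at 10.3 and 33.5 FPKM for mouse 686 and 10.3 and 23.0 for mouse 713, and with library 2 of each mouse alone its difference was -0.63 and no longer called (adjusted p = 0.0647). With all libraries entered and the mouse as a random effect, the adjusted p was 0.377. The Ei24 call was lost in 5 of the 27 settings, that of Bbc3 in 1, that of Bid in 2 and that of Aen in 9. Against wt proB, Pmaip1 (NOXA) fell by 1.15 (0.0479), a call lost in 10 settings. Among metabolic targets, Sco2 and Fdxr, both of the mitochondrion, rose by 1.84 and 0.67 against dHet proB (0.00989 and 0.0438), and Pltp and Abhd4 fell by 2.77 and 0.97 against wt proB (0.0358 and 0.0297). The Sco2 call held in all 27 settings, that of Fdxr was lost in 14, TPM and quantile scaling and each dHet proB library left out among them, that of Pltp in 10 and that of Abhd4 in 6. Between dHet proB and wt proB, 2 targets were higher (Sesn1 by 1.51 and Ei24 by 1.14) and 2 lower (Pltp by 3.66 and Epha2 by 1.38), with adjusted p from 0.0189 to 0.0476. In the order named, these calls were lost in 6, 12, 5 and 15 of the 27 settings. Of all tested genes, 8.68% were called in this comparison.

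Of 9 tested genes of the ATF4 stress pathway, which shares targets such as Sesn2 with p53, 2 were lower in B-ALL than in wt proB and 3 lower than in dHet proB. Of all tested genes, 18.2% and 25.5% were called in these comparisons. Ddit3, which encodes CHOP, fell by 2.28 and 1.36 (limma adjusted p = 0.00520 and 0.0198), Atf4 fell by 1.06 against wt proB (0.0169), and Asns fell by 3.77 against dHet proB (0.00252). In dHet proB against wt proB, Asns was 2.33 higher (0.0356) and Atf4 1.08 lower on the log2 scale (0.0231). The Asns and Atf4 calls of this comparison were lost in 8 and 5 of 27 alternative settings. In B-ALL, the Ddit3 calls were lost in 2 and 3, that of Atf4 in 3 and that of Asns in 0. The part of these changes in the differences of the 10 genes was not tested.

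The genes most like Trp53, Mdm2 and Ccng1 in their level over the 8 units were found by Pearson r of log2(FPKM + 1), as a description of units that fall into 3 groups. For Trp53 they were Ecd (r = 0.985), Nup205 (0.984) and Rpusd3 (0.975), each highest in mouse 686. For Mdm2 they were Znrd1 (0.992), Glcci1 (0.992) and the p53 target Rrm2b (0.984). Glcci1 ran from 2.74 FPKM in mouse 760 to 60.0 in wt proB library 1, and Rrm2b from 4.89 to 34.2 FPKM in the same units. For Ccng1 they were Hs2st1 (0.965), Pcnt (0.959) and Akap11 (0.944), each highest in dHet proB library 2.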

How the data were processed

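The tools named in the submitters' processing notes include STAR 2.5.3a, Cufflinks 2.2.1 and Cuffnorm 2.2.1 and the build is mm9. The authors deposited FPKM per gene symbol and library. No source used here gives the gene annotation, the strand setting or the library scaling. FPKM sums ranged from 505261 to 638953. Depth is unknown: from the steps between low values, 1 fragment was worth 1.11 to 1.57 times its worth in mouse 686 library 1. No 2 libraries held identical values.

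FPKM were log2-transformed with a pseudocount of 1, averaged per mouse and fitted over all 3 groups with limma 3.58.1 (R 4.3.3, trend, two-sided, Benjamini-Hochberg). Mice were compared with all 11 libraries in 5 groups. Differences of library 2 from library 1 correlated at 0.64 between mice 686 and 713. The replicate numbers thus pair the libraries of these mice, by the data and not by the labels. Mouse 760 had 0.135 with mouse 686 and 0.207 with mouse 713, so a pairing of its libraries with theirs is unclear. The procedure was tested on simulated data. Named besides the 10 genes were, per comparison and list (upstream regulators, 3 lists of p53 targets, immediate early genes, ATF4 pathway), up to 2 called genes in each direction with the largest difference, and always Cdkn1a and Cdkn2a. For Trp53, Mdm2 and Ccng1, 3 most similar genes were named. Genes named for dHet proB library 2, Trp63, Trp73 and the cell type markers named were outside this rule and named after their values were seen. A further B cell progenitor marker is not reported here. The genes and lists were chosen with earlier results of these data known. Alternatives covered pseudocount, filter, scaling, trend, libraries, groups, replicate number and each library left out.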

Additional observations from a re-analysis of the deposited data

How the results depend on the processing

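Across the 3 groups the replicate numbers did not pair the samples: differences of library 2 from library 1 correlated between -0.13 and 0.11 for the B-ALL mice with the proB groups and at 0.0041 between the proB groups. With the replicate number as a block, 3 (B-ALL against wt proB), 4 (B-ALL against dHet proB) and 0 (dHet proB against wt proB) of the set were called. Of the 11110 tested genes, 2333, 2402 and 916 were called in the same order. Between mice the block gave 2 of the set and 3118 of 11293 tested genes. The B-ALL libraries alone gave 7 and 5073, with the filter on low values applied to these libraries. Leaving out a mouse or library in turn, the calls of the set ran from 0 to 4 against wt proB (0 without either wt proB library), from 1 to 4 against dHet proB (1 without mouse 686 or dHet proB library 1), stayed at 0 for dHet proB against wt proB and ran from 0 to 3 between mice. All genes called ran from 195 to 2460, 1393 to 2965, 76 to 1251 and 1302 to 3430 in the same order. Fewer samples leave fewer degrees of freedom, the filter on low values was applied anew to the samples kept, and no other cause was tested. These differences changed sign. Ccng1 in B-ALL against wt proB became -0.13 with TPM and ran from -0.14 (without mouse 686) to 0.22 (without mouse 760) with samples left out. Sesn2 in the same comparison became 0.17 with quantile normalization and 0.025 with library 1 of each mouse alone, and ran from -0.35 (without wt proB library 2) to 0.25 (without wt proB library 1). Trp53 in dHet proB against wt proB ran from -0.48 (without wt proB library 2) to 0.035 (without wt proB library 1). Cdkn1a in that comparison became -0.046 with the replicate block and ran from -0.046 (without dHet proB library 3) to 0.63 (without dHet proB library 1). The depth of single libraries is unknown, so the precision of low values such as those of Zmat3 and Eda2r cannot be given.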
